A study of Mus musculus with 2 samples.

Results

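In a droplet single-cell RNA library of AKT1.MYC mouse liver tumours, 224 of 10766 cell barcodes were dividing cells that carried keratin transcripts. They were chosen by measured unique molecular identifiers (UMIs, tags that mark single captured transcripts). A member had UMIs in at least 2 of the 5 epithelial genes Krt8, Krt18, Krt19, Krt7 and Epcam, and in at least 4 of 8 cell cycle genes (Mki67, Top2a, Cenpf, Birc5, Pbk, Prc1, Hmmr and Cdc20). Mitochondrial UMIs were at most 20%, the macrophage genes C1qa, C1qb and C1qc together under 0.5%, and the collagen genes Col1a1, Col1a2 and Col3a1 together under 0.3% of its UMIs. Of the 10766 barcodes, 10313 passed the mitochondrial limit, 5238 also passed the C1q and collagen limits, and 4765 of those passed the keratin gate. Both libraries of the series together held 17078 barcodes. Because these genes chose the members, their levels are given as description only.

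The AKT1.MYC mice, on a C57BL/6 background, had received plasmids for Akt1 (10 µg) and human c-Myc (10 µg) with 5 µg of a Sleeping Beauty transposase plasmid, which inserts the oncogenes into the genome of transfected liver cells. The NRAS.MYC.ND mice, of the same background, had received plasmids for human N-Ras (19 µg) and human c-Myc (1 µg) with 2 µg of the transposase plasmid. In both groups the plasmids were delivered by hydrodynamic tail vein injection, a rapid injection of 10% of the body weight in under 8 seconds, and tumours were taken 14 weeks later. Dissociated live cells went into 10x Chromium 3′ libraries, 1 library per group. The age and number of the animals behind each library and the promoters of the plasmids are not given in the sources used here. With 1 library per group, no test between groups or cells was made, and all intervals, at 95%, cover counting error only.

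A dividing cell copies its DNA in S phase and separates the copies in mitosis. Entry into S phase is driven by E2F transcription factors, which are released from RB proteins when cyclin-dependent kinases phosphorylate those, and which switch on helicase, polymerase and nucleotide synthesis genes. Later, the MuvB complex with B-Myb and FoxM1 switches on the genes of the spindle, the kinetochore and the anaphase-promoting complex, many through a promoter element called CHR, often next to CCAAT boxes bound by NF-Y. In the adult liver most hepatocytes and duct cells are at rest, and keratins 8 and 18 occur in both, while keratins 7 and 19 mark duct cells.

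The promoters of 2 S phase and 2 G2 and mitosis genes are shown, since Mcm5, Mcm6 and Cdk1 are among the genes that rank the members by cycle phase further on and Cdc20 is one of the 8 gate genes. The sequences, credited to RefSeq on GRCm38.p6, are 5′ to 3′ on the strand of the gene and lie upstream of the annotated transcript. The windows of Cdk1 and Cdc20 are shown to 224 and 241 bases, up to the more upstream gene start of the GENCODE annotation. Capitals mark a CHR, a CCAAT box, or an E2F element, each searched on both strands. The CHR was TTTGAA. The E2F letters were TTGGCGC, secondly TTCCCGC, next TTGCCGC and lastly TTCGCGC. Matches to these can overlap each other. Mcm5 and Mcm6 code for subunits of the replicative helicase, Cdk1 for the mitotic cyclin-dependent kinase, and Cdc20 for an activator of the anaphase-promoting complex.
Mcm5, chr8:75109259-75109508, plus strand: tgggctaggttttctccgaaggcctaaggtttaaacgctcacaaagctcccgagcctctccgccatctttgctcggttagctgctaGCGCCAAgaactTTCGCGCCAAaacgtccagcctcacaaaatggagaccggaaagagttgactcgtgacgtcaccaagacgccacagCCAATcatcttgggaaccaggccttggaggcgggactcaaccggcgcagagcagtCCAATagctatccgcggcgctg
Mcm6, chr1:128359706-128359955, minus strand: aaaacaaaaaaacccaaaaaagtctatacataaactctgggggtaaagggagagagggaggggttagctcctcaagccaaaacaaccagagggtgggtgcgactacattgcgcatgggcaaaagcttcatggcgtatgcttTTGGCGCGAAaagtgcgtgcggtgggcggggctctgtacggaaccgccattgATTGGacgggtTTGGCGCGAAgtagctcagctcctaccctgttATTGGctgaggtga
Cdk1, chr10:69352939-69353162, minus strand: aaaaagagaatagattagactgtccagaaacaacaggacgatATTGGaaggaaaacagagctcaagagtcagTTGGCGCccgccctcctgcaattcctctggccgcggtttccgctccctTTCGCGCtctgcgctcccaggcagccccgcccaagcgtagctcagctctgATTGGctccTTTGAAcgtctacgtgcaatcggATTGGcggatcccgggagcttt
Cdc20, chr4:118437353-118437593, minus strand: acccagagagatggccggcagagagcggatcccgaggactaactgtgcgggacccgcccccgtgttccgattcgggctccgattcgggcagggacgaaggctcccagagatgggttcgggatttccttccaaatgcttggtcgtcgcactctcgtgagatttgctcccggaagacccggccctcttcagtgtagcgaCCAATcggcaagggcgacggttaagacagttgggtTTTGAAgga
Mcm5 held 3 E2F and 2 CCAAT matches and Mcm6 held 4 and 2, with no CHR in either window. Cdk1 held 1 CHR, 3 CCAAT and 2 E2F matches, and Cdc20 held 1 CHR and 1 CCAAT match.

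Over the 250 bases before each RefSeq gene start, a CHR was found in 1 of 11 matched S phase genes and in 4 of 11 matched G2 and mitosis genes. An E2F element was found in 7 of 11 S phase and in 2 of 11 G2 and mitosis genes, and a CCAAT box in 9 and in 10 of them. Of all 32851 promoter windows, 16.0% held a CHR, 7.89% an E2F element and 33.8% a CCAAT box. In the lists a gene counted if any of its windows matched, while these shares count each window singly. They are therefore not like for like. Among 30 matched genes of replication, 13 held an E2F element and 5 a CHR, and among 26 matched genes of the spindle motors and cytokinesis, 6 held an E2F element and 10 a CHR. A match describes letters in a window and not a bound site.

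The genes described in most detail lie, in GENCODE vM21 on GRCm38, at chr3:36564865-36572150 on the minus strand for Ccna2 (ENSMUSG00000027715), chr12:24708241-24714146 on the plus strand for Rrm2 (ENSMUSG00000020649), chr9:65890237-65903266 on the plus strand for Pclaf (ENSMUSG00000040204) and chr11:7197782-7202546 on the plus strand for Igfbp1 (ENSMUSG00000020429), all protein-coding.

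The label of epithelial tumour cells did not hold for all members. For the others it rests largely on the keratin and Epcam genes that chose them, and tumour origin was not tested. The keratin gate passed 91.0% of the barcodes under the C1q and collagen limits, and at least 2 of the keratin genes were also seen in 86.5% of 4349 C1q-rich cells and in 80.4% of 603 cells rich in the neutrophil genes S100a8 and S100a9. In NRAS.MYC.ND the corresponding shares were 6.93% and 2.62%. Median depths of the C1q-rich cells were 1281 UMIs in AKT1.MYC and 8893.5 UMIs in NRAS.MYC.ND. Keratin UMIs thus also occurred in AKT1.MYC barcodes rich in genes of other cell types. A limit of 0.3% on the share of UMIs from the 5 keratin and Epcam genes, added after the data were seen, divided the members. Above it, 173 held 0.313% to 2.91% (median 0.904%), and below it 51 held 0.0461% to 0.276% (median 0.0976%). Between 0.2% and 0.4% lay 14 members. The limit did not by itself mark epithelium in this library. C1q-rich AKT1.MYC cells had a median share of 0.302% (upper quartile 0.553%), and the cells rich in S100a8 and S100a9 one of 0.237% (upper quartile 0.344%).

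The 51 keratin-low members mostly showed endothelial markers or a leukocyte transcript. At least 5 of 9 endothelial markers were seen in 23 of them, 20 others had a UMI of the leukocyte gene Ptprc, and 8 had neither. Among the 173 keratin-high members, 4 had at least 5 endothelial markers and 33 had a Ptprc UMI. Counts of macrophage and of fibroblast and pericyte markers seen did not divide the members this way. At least 5 of 11 macrophage markers were seen in 155 of the 173 keratin-high and 47 of the 51 keratin-low members. At least 5 of 9 fibroblast and pericyte markers were seen in 97 keratin-high and 12 keratin-low members. In CPM, a gene's UMIs summed over cells and scaled to 1000000 UMIs in all, keratin-high members held 75.4 CPM of endothelial and 178 CPM of neutrophil markers, against 87.9 and 319.9 CPM in keratin-high non-cycling cells. Macrophage markers summed to 1565 CPM in keratin-high members and 1608 CPM in keratin-high non-cycling cells, and T and NK cell markers to 9.0 and 14.8 CPM, with Cd3e, Ncr1 and Cd2 at 0 in the members. B and plasma cell markers summed to 9.93 and 8.53 CPM, fibroblast and pericyte markers to 483 and 636 CPM, and erythroid markers to 45.4 and 61.1 CPM with Alas2 at 0 in the members. Sums were higher in keratin-low than in keratin-high members for neutrophil (9179 CPM), macrophage (3879 CPM) and endothelial markers (2612 CPM). The same held for B and plasma cell (2029 CPM) and T and NK cell markers (190 CPM). Erythroid markers summed to 54.4 CPM in keratin-low members, and fibroblast and pericyte markers, lower there, to 247 CPM. The comparison with non-cycling cells and the ranges by cycle phase therefore mainly use the keratin-high members, with counts for all 224 beside many of them. The comparisons with C1q-rich cells and with NRAS.MYC.ND mainly use all 224 members, the keratin-low ones included.

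**Figure D1:**
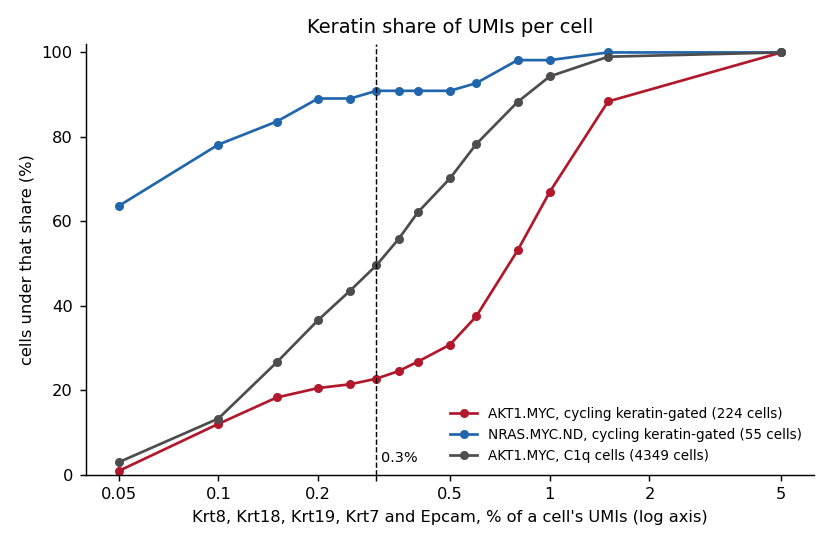
Cumulative share of cells (vertical axis, %) against the share of a cell's UMIs from the 5 keratin and Epcam genes (horizontal log axis, %), for cycling keratin-gated cells of AKT1.MYC and NRAS.MYC.ND and for C1q-rich cells of AKT1.MYC, with a dashed line at 0.3%. In AKT1.MYC 173 of 224 members lie above the line, and in NRAS.MYC.ND 5 of 55. The C1q-rich cells of AKT1.MYC had a median share of 0.302%.

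Cycling cells of AKT1.MYC carried more UMIs than the cells they are set against. The 224 members held a median of 21663.5 UMIs (733 to 134094) and the 173 keratin-high members 26398. Non-cycling cells were keratin-gated AKT1.MYC cells with no UMI in any of the 8 cycle genes and at least 4005.4 UMIs, the 10th percentile of the members: 1018 cells with a median of 9172.5 UMIs, of which 626 were keratin-high with a median of 12485. The nuclear RNA Malat1 was at 7218 CPM in keratin-high cycling and 17111 CPM in keratin-high non-cycling cells, and ribosomal protein genes took 19.4% and 14.9% of UMIs. These differences in depth and content run along with every comparison of cycling with non-cycling cells here, and their part in it was not tested. In addition, 17 barcodes occur in both libraries, none of them a member.

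The share of keratin-gated cells in the cycling gate was 4.70% (4.12% to 5.34%, Clopper-Pearson), and 5.11% (173 of 3383; 4.40% to 5.91%) among keratin-high cells. It depended on depth: among keratin-high cells it was 0.206% under 2000 UMIs, 2.96% from 2000 to under 5000, 7.74% from 5000 to under 10000, 7.86% from 10000 to under 20000, 9.47% from 20000 to under 40000 and 25% from 40000 upwards. With every keratin-gated cell thinned to 5000 UMIs, which left out 2887 shallower cells, the share was 4.74%, and thinned to 20000 UMIs it was 11.5% of 775 cells. The rule applied to NRAS.MYC.ND took 55 of 577 keratin-gated cells (9.53%), but of its 216 keratin-high cells 5 passed (2.31%; 0.756% to 5.32%). Thinned to 5000 UMIs, keratin-high AKT1.MYC cells had a share of 4.67% (63 of 1350), and keratin-high NRAS.MYC.ND cells one of 1.15% (2 of 174; 0.140% to 4.09%). Without the keratin limit the order of the libraries turned. At 5000 UMIs, 28 of 422 NRAS.MYC.ND cells passed (6.64%; 4.45% to 9.45%), against 4.74% (3.82% to 5.80%) for AKT1.MYC. At 10000 UMIs the shares were 13.1% and 7.86%. The limit is not a like filter for both: C1q-rich cells had a median keratin share of 0.302% for AKT1.MYC and 0% for NRAS.MYC.ND.

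**Figure D2:**
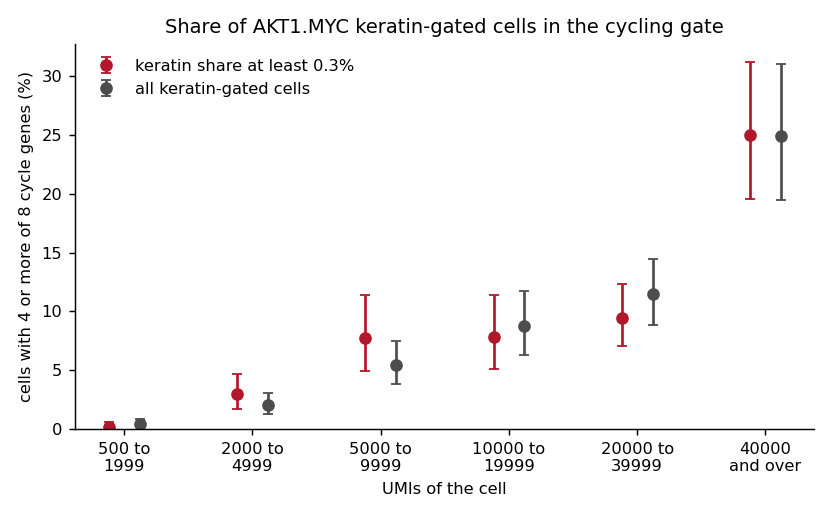
Share of AKT1.MYC keratin-gated cells with at least 4 of the 8 cycle genes (vertical axis, %, bars are exact 95% binomial intervals) in 6 classes of UMIs per cell (horizontal axis), for keratin-high cells and for all. Both series run from under 1% in the shallowest class to 25% and 24.9% in the deepest.

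Members differed widely in the 8 genes that chose them. In single keratin-high members, Mki67, which codes for the Ki-67 protein that coats mitotic chromosomes, had lowest 0, median 96.00 and highest 1289 CPM, Top2a, the topoisomerase that untangles DNA, lowest 0, median 65.3 and highest 2629 CPM, and Birc5, the survivin subunit of the chromosomal passenger complex, lowest 0, median 187 and highest 1839 CPM. Cenpf, a kinetochore protein, had lowest 0, median 55.7 and highest 2186 CPM, Cdc20 lowest 0, median 54.9 and highest 1814 CPM and Prc1, which bundles midzone microtubules, lowest 0, median 55.99 and highest 1364 CPM. For each of these genes at least 1 member was at 0, since 4 of 8 genes sufficed. The 59 members with just 4 of the 8 genes had 45.1 CPM of Mki67 and 102.3 CPM of Birc5 and a median of 19135 UMIs, while the 111 keratin-gated cells with 3, just outside the gate, had 17.8 and 39.6 CPM and a median of 27625 UMIs.

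Among keratin-high cells, 12603 genes had at least 30 UMIs over cycling and non-cycling cells. Of these, 573 (4.55%) were at least 2-fold higher and 888 (7.05%) at least 2-fold lower in cycling cells, with a median log2 ratio of -0.16 over all genes (a log2 ratio of 1 is 2-fold). By the rule, over all 224 and 1018 cells, 648 of 13436 genes (4.82%) were higher and 1163 (8.66%) lower. The higher genes were largely the same, with 535 shared, which is 82.6% of the calls by the rule and 93.4% of the keratin-high calls. The 621 shared lower genes were 53.4% and 69.9%. The rule chose the cycling cells from the same transcripts, so these shares describe the contrast and nothing is read from them.

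**Figure D3:**
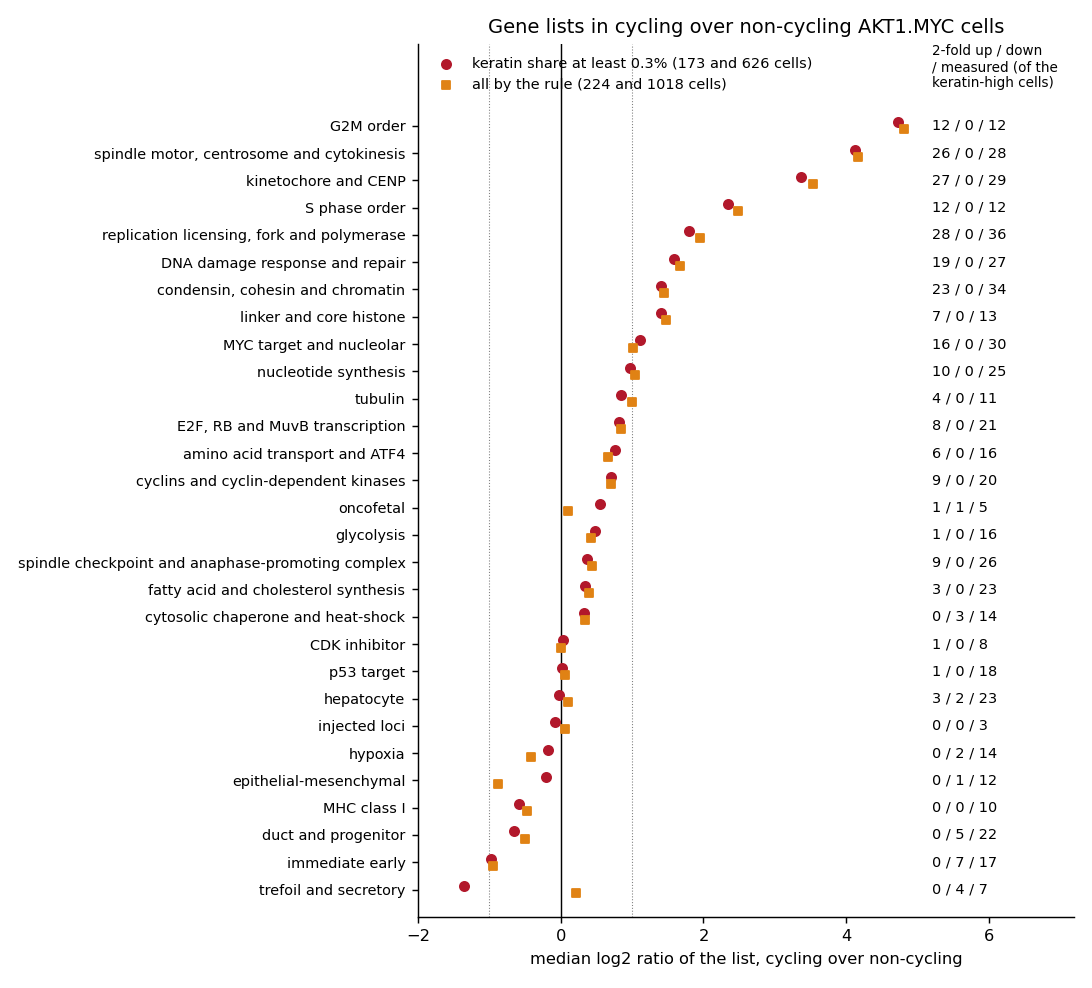
Median log2 ratio of cycling over non-cycling AKT1.MYC cells (horizontal axis) for lists of genes (vertical axis), in keratin-high cells (circles) and in all cells by the rule (squares), with dotted lines at 2-fold and the numbers of genes at least 2-fold up, at least 2-fold down and measured in keratin-high cells on the right. Genes of mitosis and replication lie furthest to the right (medians of 4.72 and 2.34 for the 2 order lists), and trefoil, immediate early and duct genes lie to the left of 0 (-1.35, -0.98 and -0.65 in keratin-high cells; the trefoil list is at 0.21 by the rule).

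The machinery of DNA synthesis was higher in the cycling cells almost throughout. All 12 S phase order genes and 28 of 36 genes of replication licensing, fork and polymerase were at least 2-fold higher in keratin-high cycling cells (12 of 12 and 30 of 36 by the rule), with medians of 2.34 and 1.79 on the log2 scale. Rrm2, the small subunit of ribonucleotide reductase, was at 121 CPM in cycling and 4.27 CPM in non-cycling cells, a log2 ratio of 4.82 (4.39 to 5.29). In single cells Rrm2 had lowest 0, median 68.1 and highest 1206 CPM in the keratin-high members and lowest 0, median 0 and highest 175 CPM in keratin-high non-cycling cells, so that the ranges overlapped. Pclaf, a partner of the sliding clamp that the naming rule picked, was at 172 CPM in cycling and 4.46 CPM in non-cycling cells, a log2 ratio of 5.27 (4.85 to 5.73), and the clamp itself, Pcna, at 136 and 40.5 CPM (log2 ratio 1.75). The helicase subunits Mcm5 and Mcm6, whose promoters are shown above, were at 71.6 and 122 CPM in cycling and 8.06 and 29.8 CPM in non-cycling cells.

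Within the replication list, the largest ratios belonged to genes that were almost silent outside the cycle. Cdc7, the kinase that fires origins, was at 6.56 CPM in cycling and 0.0948 CPM in non-cycling cells, where this was 1 UMI. Clspn, the fork protein claspin, was at 33.9 CPM in cycling and 1.80 CPM in non-cycling cells, a log2 ratio of 4.24 (3.55 to 5.00). Lig1, which joins Okazaki fragments, was the most abundant gene of the list at 133 CPM in cycling and 27.5 CPM in non-cycling cells. Pold3, a polymerase delta subunit, was alike in both at 39.2 and 38.8 CPM, and Rfc1, the large subunit of the clamp loader, was at 92.97 and 58.98 CPM.

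Nucleotide synthesis genes moved less as a group, with 10 of 25 at least 2-fold higher (13 of 25 by the rule) and a median of 0.97. Those of the thymidylate branch led: Tk1, thymidine kinase, was at 65.98 CPM in cycling and 3.51 CPM in non-cycling cells, a log2 ratio of 4.23 (3.74 to 4.76), and Dut, which removes dUTP, was at 231 and 53.2 CPM. Tyms, thymidylate synthase, counted with the S phase order genes, was at 124 and 23.04 CPM. The purine enzymes Paics and Gmps stayed below 2-fold, at 189.5 and 83.6 CPM in cycling against 161 and 60.4 CPM in non-cycling cells.

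Of 21 E2F, RB and MuvB genes, 8 were at least 2-fold higher (10 by the rule) and none lower, with a median of 0.82. E2f8, a late repressor of E2F targets, was at 6.94 CPM in cycling cells and at 1 UMI, 0.0948 CPM, in non-cycling cells. Mybl2, which codes for B-Myb, was at 23.4 CPM in cycling and 0.948 CPM in non-cycling cells, a log2 ratio of 4.63 (3.70 to 5.72), Foxm1 at 18.4 and 1.14 CPM, and the activator E2f1 at 24.7 and 3.89 CPM. The E2F partner Tfdp1 and the MuvB gene Lin9 were also past 2-fold, at 64.9 and 11.1 CPM in cycling and 30.9 and 5.03 CPM in non-cycling cells. Below 2-fold, E2f3, E2f6 and Lin54 had log2 ratios of 0.81, 0.82 and 0.91. The repressive members E2f4 and E2f5 were at 28.3 and 15.6 CPM in cycling and 26.8 and 23.4 CPM in non-cycling cells.

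Of 20 cyclins and cyclin-dependent kinase genes, 9 were at least 2-fold higher (9 by the rule). Ccna2, cyclin A2, had the largest ratio of all genes the naming rule picked, at 86.97 CPM in cycling and 1.23 CPM in non-cycling cells, a log2 ratio of 6.14 (5.35 to 7.06). In single cells it had lowest 0, median 48.96 and highest 804 CPM in keratin-high members and lowest 0, median 0 and highest 245 CPM in keratin-high non-cycling cells. The mitotic cyclins Ccnb1 and Ccnb2 were at 81.5 and 119 CPM in cycling and 2.18 and 3.03 CPM in non-cycling cells, Cdk1 at 136 and 7.59 CPM, and the phosphatase Cdc25c, which activates Cdk1, at 14.4 and 0.284 CPM. The S phase cyclin Ccne1 was at 16.1 and 4.55 CPM. The G1 genes differed by less than 2-fold: Ccnd1 was at 184 and 141 CPM, Cdk4 at 342 and 272 CPM, and Ccnd2 at 86.4 and 117 CPM.

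Of 8 cyclin-dependent kinase inhibitor genes, 1 was at least 2-fold higher and none lower (1 and 1 by the rule). The higher one was Cdkn3, a phosphatase that acts on Cdk1 and Cdk2, at 47.6 CPM in cycling and 0.759 CPM in non-cycling cells, a log2 ratio of 5.97. Cdkn1a, which codes for p21, was the most abundant of the list at 429.6 CPM in cycling and 575 CPM in non-cycling cells, a log2 ratio of -0.42. Cdkn2a, the Ink4a/Arf locus, was at 7.87 and 5.69 CPM with an interval of the log2 ratio (-0.14 to 1.06) that spans 0.

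The genes of mitosis showed the largest ratios, but the gate itself leans this way. Its cycle genes are largely genes of G2 and mitosis, such as Cenpf, Birc5, Prc1 and Cdc20. Members had to show several of them and non-cycling cells had to lack them all. How far this sets the larger ratios of mitosis than of S phase genes was not tested. All 12 G2 and mitosis order genes, 27 of 29 kinetochore genes and 26 of 28 spindle motor, centrosome and cytokinesis genes were at least 2-fold higher in keratin-high cycling cells (12 of 12, 27 of 29 and 27 of 29 by the rule), with medians of 4.72, 3.36 and 4.13. Tpx2, which targets Aurora A to the spindle, was at 68.98 CPM in cycling and 1.99 CPM in non-cycling cells, a log2 ratio of 5.11 (4.48 to 5.82), Ube2c, the ubiquitin-conjugating enzyme of the anaphase-promoting complex, at 147 and 6.64 CPM, and Cenpa, the centromeric histone, at 136 and 5.31 CPM. Bub1, a checkpoint kinase, was at 18.9 CPM in cycling cells and at 2 UMIs, 0.190 CPM, in non-cycling cells. At the kinetochore, Cdca8, the borealin subunit of the chromosomal passenger complex, was at 117 and 5.12 CPM, its kinase Aurkb at 43.3 and 1.33 CPM, and Spc24, of the Ndc80 complex, at 116 and 7.30 CPM.

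Of the motors and cytokinesis genes, Racgap1, of the centralspindlin complex, was the most abundant at 82.5 CPM in cycling and 4.27 CPM in non-cycling cells, a log2 ratio of 4.27 (3.83 to 4.75), and Spag5, Kif20a and Nek2 had the largest ratios, with 14.8, 36.4 and 18.2 CPM in cycling and 0.190, 0.759 and 0.569 CPM in non-cycling cells. Cdca3, which marks Wee1 for degradation, was named by the rule at 133 and 4.27 CPM. The spindle checkpoint and anaphase-promoting complex list divided: 9 of 26 genes were at least 2-fold higher (9 by the rule), among them the checkpoint kinase Ttk at 10.9 and 0.284 CPM, the checkpoint protein Mad2l1 at 47.4 and 6.35 CPM and the enzyme Ube2s at 438 and 142 CPM. Of the subunits of the complex, Anapc15 was past 2-fold at 48.7 and 22.8 CPM and Anapc11 below it at 141 and 88.4 CPM, while Anapc5 was at 137 and 109 CPM, Cdc27 at 16.1 and 16.02 CPM and Anapc13 at 175 and 176 CPM.

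Chromatin and histone genes followed. Of 34 condensin, cohesin and chromatin genes, 23 were at least 2-fold higher (23 by the rule), with a median of 1.40. H2afz, the histone variant H2A.Z, was the most abundant at 1999.7 CPM in cycling and 477 CPM in non-cycling cells, a log2 ratio of 2.07 (2.02 to 2.12). In single cells H2afz had lowest 0, median 1873 and highest 7503 CPM in keratin-high members and lowest 0, median 433 and highest 2625 CPM in keratin-high non-cycling cells. Hmgb2, a chromatin protein of dividing cells, was at 532 and 101 CPM, and Esco2, which acetylates cohesin in S phase, at 32.1 and 0.664 CPM. The cohesin subunit Rad21 was past 2-fold at 99.3 and 46.3 CPM, while the cohesin subunits Stag1, Stag2 and Smc3 stayed under 2-fold, with log2 ratios of 0.23, 0.18 and 0.61.

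Of 13 measured linker and core histone genes, 7 were at least 2-fold higher (9 of 15 by the rule). Hist1h2ap was at 199 CPM in cycling and 8.53 CPM in non-cycling cells, a log2 ratio of 4.55 (4.24 to 4.87) and the linker histone Hist1h1b at 30.2 and 1.04 CPM, while the replication-independent H3f3b was level at 3995 and 4323 CPM. Histone genes have near-identical copies, between which the counting could split reads, and most replication-dependent histone transcripts carry no poly(A) tail, on which this kind of library primes. Of 11 tubulin genes, 4 were at least 2-fold higher (6 of 12 by the rule): Tuba1b at 516 and 99.7 CPM, the tubulin-binding Stmn1 at 736 and 174 CPM, Tubg1 and Tubb5. Tuba1a and Tubb2b were lower by less than 2-fold, at 96.3 and 90.3 CPM in cycling and 132 and 129 CPM in non-cycling cells.

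**Figure D4:**
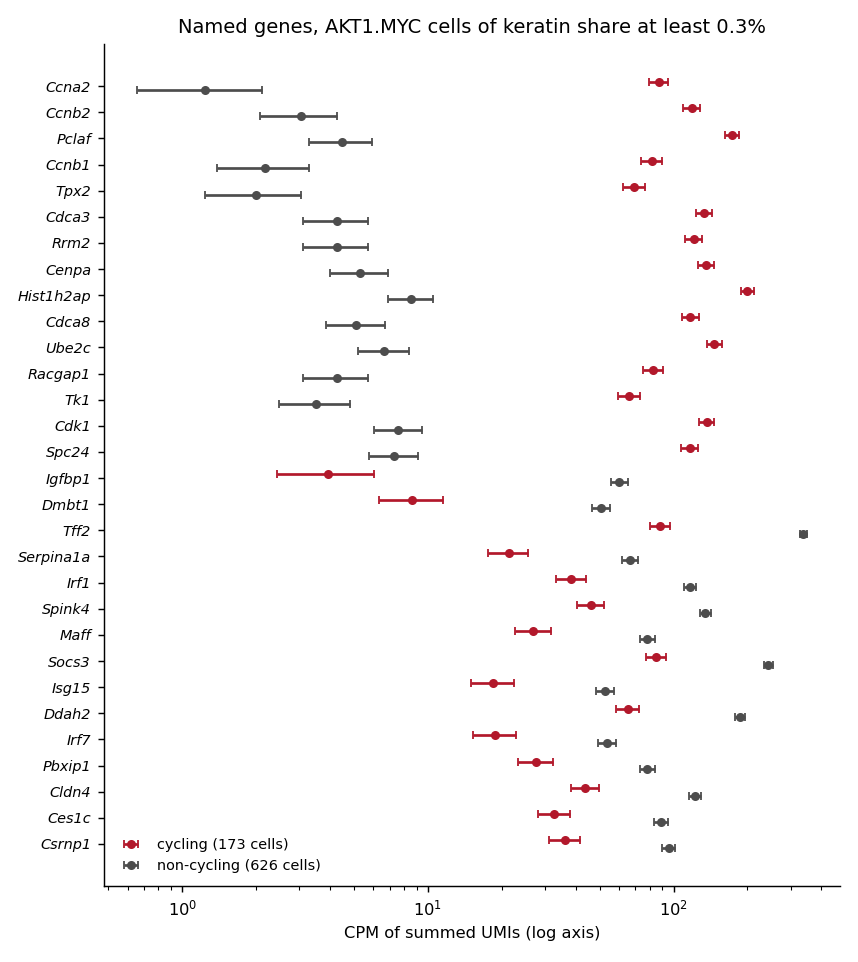
CPM of summed UMIs (horizontal log axis, bars are exact 95% Poisson intervals) of the 15 highest and 15 lowest genes picked by the naming rule (vertical axis), in keratin-high cycling (red) and keratin-high non-cycling (grey) AKT1.MYC cells. The upper 15 are cell cycle genes, from Ccna2 at 86.97 against 1.23 CPM to Spc24 at 116 against 7.30 CPM, and the lower 15 run from Igfbp1 at 3.94 against 60.1 CPM to Csrnp1 at 36.2 against 95.7 CPM.

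Of 27 DNA damage response and repair genes, 19 were at least 2-fold higher (19 of 28 by the rule), with a median of 1.59. Rad54l, a chromatin remodeller of homologous recombination, was at 10.3 CPM in cycling and 0.190 CPM in non-cycling cells, a log2 ratio of 5.76 (3.84 to 8.85), and Brca1 at 15.4 and 5.12 CPM. The damage kinase Atm and the end-joining factor Xrcc5 stayed under 2-fold at 18.7 and 36.9 CPM in cycling and 10.8 and 36.8 CPM in non-cycling cells. Of 18 p53 target genes 1 was at least 2-fold higher (1 by the rule), Gtse1, which is itself expressed in G2, and the median was 0.01. Mdm2 was at 81.5 and 81.3 CPM, Bax at 416 and 396 CPM and Ccng1 at 104 and 101 CPM.

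Genes of ribosome making were higher too. Of 30 MYC target and nucleolar genes, 16 were at least 2-fold higher and none lower (16 by the rule), with a median of 1.11. Srm, spermidine synthase, was at 163 CPM in cycling and 42.7 CPM in non-cycling cells, a log2 ratio of 1.93 (1.77 to 2.10), and the nucleolar proteins Nolc1, Nop58 and Dkc1 at 143, 251 and 107 CPM in cycling and 47.4, 85.4 and 36.7 CPM in non-cycling cells. Npm1, nucleophosmin, was at 2206 CPM in cycling and 1022 CPM in non-cycling cells, a log2 ratio of 1.11 (1.07 to 1.15). In single cells Npm1 had lowest 231, median 1926 and highest 7743 CPM in keratin-high members and lowest 0, median 905 and highest 4206 CPM in keratin-high non-cycling cells. Ncl, nucleolin, was at 1214 and 485 CPM, and Odc1, the first enzyme of polyamine synthesis, at 258 and 107 CPM.

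Neither Akt1 nor Myc, the injected oncogenes of AKT1.MYC, differed by 2-fold at its mouse locus, nor did Nras, which was not injected in these mice. Akt1 was at 282 CPM in cycling and 236 CPM in non-cycling cells, a log2 ratio of 0.25 (0.16 to 0.35), Myc at 99.9 and 106 CPM (log2 ratio -0.08, -0.23 to 0.07) and Nras at 64.3 and 73.7 CPM (log2 ratio -0.20). The counts are on the mouse reference, so transcripts of the human c-Myc plasmid and of the mouse gene cannot be told apart in them, and the labels do not name the species of the Akt1 insert.

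Of 16 amino acid transport and ATF4 genes, 6 were at least 2-fold higher (6 by the rule). They were 3 enzymes of serine synthesis, namely Psat1 at 119 CPM in cycling and 28.4 CPM in non-cycling cells, a log2 ratio of 2.07 (1.87 to 2.28), Psph at 56.2 and 22.1 CPM and Phgdh at 196 and 93.7 CPM, the transporter Slc7a5 at 32.2 and 8.82 CPM, the asparagine synthetase Asns at 79.1 and 36.98 CPM, and Pycr1, a proline enzyme, at 5.62 and 2.09 CPM. Atf4 itself was at 137 and 159 CPM. The list did not only move upward: by the rule, without the top cell of each group, the transporter Slc7a11 had a log2 ratio of -1.95. Its UMIs came from 14 of 173 keratin-high members and 36 of 626 keratin-high non-cycling cells, with highest values of 239 and 1833 CPM. Glycolysis genes had a median of 0.48 with 1 of 16 at least 2-fold higher (none by the rule), the hexokinase Hk2, while Ldha was at 1359 and 722 CPM and Pkm at 769 and 412 CPM. Of 23 fatty acid and cholesterol synthesis genes 3 were at least 2-fold higher (3 by the rule), namely the elongase Elovl6 at 38.6 and 14.1 CPM and the sterol enzymes Idi1 and Lss, with a median of 0.34.

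Chaperone genes divided by kind. None of 14 was at least 2-fold higher, and 3 were at least 2-fold lower (3 by the rule): the small heat-shock protein Hspb1 at 622 CPM in cycling and 1639 CPM in non-cycling cells, a log2 ratio of -1.40 (-1.45 to -1.34), Hspa1a at 71.2 and 157 CPM, and Hspa1b at 21.2 and 46.7 CPM. Hspa1a and Hspa1b are near-identical copies, between which the counting could split reads. The chaperonin subunits Cct2, Cct3, Cct5, Cct8 and Tcp1 were higher by less than 2-fold, with log2 ratios of 0.54, 0.52, 0.53, 0.51 and 0.64.

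Immediate early genes, which are switched on within minutes by growth factors or stress, were lower in the cycling cells throughout: 7 of 17 by at least 2-fold and none higher (5 of 17 by the rule), with a median of -0.98. The AP-1 genes Jun and Fos were at 1209.6 and 1398 CPM in cycling and 3004 and 2879 CPM in non-cycling cells, Junb at 538 and 1303 CPM, and Atf3 at 1581 and 3300.5 CPM. In single cells Jun had lowest 0, median 849 and highest 8433 CPM in keratin-high members and lowest 0, median 2381 and highest 18780.5 CPM in keratin-high non-cycling cells, so the lower level of the sum goes with a lower median and with ranges that overlap. Egr1 was at 433 and 851 CPM, just under 2-fold. Malat1, given above, was lower in the same cells.

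Duct and progenitor genes were lower by less. Of 22, 5 were at least 2-fold lower and none higher (3 by the rule), with a median of -0.65, and all ratios but those of Lcn2 and Wfdc2 were below the median of all genes. Clu, the secreted chaperone clusterin, was at 8730.5 CPM in cycling and 18560.3 CPM in non-cycling cells, a log2 ratio of -1.09 (-1.10 to -1.07). In single cells Clu had lowest 354, median 7317 and highest 29095 CPM in keratin-high members and lowest 741, median 15840.3 and highest 66112 CPM in keratin-high non-cycling cells. The tight junction gene Cldn4 was at 43.7 and 122 CPM (log2 ratio -0.64 by the rule with cells thinned), Wfdc18 at 1805 and 3622 CPM, and Krt23 at 14.1 and 34.2 CPM. Sox9, the transcription factor of duct cells, was at 131 and 231 CPM. Spp1, osteopontin, took 19175 CPM in cycling and 28476 CPM in non-cycling cells, and Lcn2, lipocalin 2, was nearly level at 3939 and 4201 CPM.

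The gate genes of the epithelium were also somewhat lower: Krt8 was at 4501 CPM in cycling and 5533 CPM in non-cycling cells, Krt18 at 4224 and 5389 CPM, Krt19 at 861 and 1176 CPM, Krt7 at 439 and 562 CPM and Epcam at 349.8 and 550.1 CPM. The rule and the added limit set a minimum on these genes in both groups. In single cells Krt8 had lowest 1023, median 3844 and highest 12541 CPM in keratin-high members and lowest 500.2, median 4784 and highest 17985 CPM in keratin-high non-cycling cells, and lowest 125, median 459.8 and highest 1704 CPM in keratin-low members.

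Trefoil and secretory genes were lower for 4 of 7, Tff2, a mucus-associated peptide, at 88.1 CPM in cycling and 338 CPM in non-cycling cells, a log2 ratio of -1.94 (-2.08 to -1.80), and Reg3b, Ltf and Tff3, which were all under 10 CPM in both groups. All UMIs of Reg3b in cycling cells came from 1 cell. By the rule 3 of 7 were at least 2-fold lower and 1 higher, with a median of 0.21. Mmp7, a protease of injured ducts, was at 138 and 338 CPM and was the 1 gene of 12 in the epithelial-mesenchymal list past 2-fold (5 of 14 by the rule). Of 14 hypoxia genes, 2 were at least 2-fold lower (3 by the rule), Vegfa at 15.7 and 39.8 CPM and Ankrd37. None of 10 MHC class I genes passed 2-fold (none by the rule), yet all 10 ratios were below 0, and all but that of Psmb10 below the median of all genes, with a list median of -0.59. By the rule the list median was -0.48, and over the alternative settings it ran from -0.61 to 0.091, so its sign was not kept in all of them. H2-K1 was at 790.3 and 1371 CPM and B2m at 355 and 554 CPM.

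Beyond the lists, the naming rule (at least 50 CPM in the higher group and an interval that excludes 2-fold) found 114 higher and 47 lower genes in keratin-high cells. The 15 with the largest ratios in each direction were named, and all 15 of the higher ones are the cell cycle genes given above. Of the lower ones, Igfbp1, a secreted insulin-like growth factor binding protein of hepatocytes, had the largest ratio at 3.94 CPM in cycling and 60.1 CPM in non-cycling cells, a log2 ratio of -3.93 (-4.63 to -3.31). Its UMIs came from 16 of 173 keratin-high members and 52 of 626 keratin-high non-cycling cells, with a highest value of 130 CPM in the members and 7720 CPM in the non-cycling cells, and without the top cell of each group its log2 ratio was -3.77. Dmbt1, a mucosal scavenger protein, followed at 8.62 and 50.8 CPM, but 65.2% of its UMIs in cycling cells came from 1 cell.

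Several others of the 15 are interferon or cytokine response genes. Irf1 and Irf7, interferon regulatory factors, were at 38.2 and 18.7 CPM in cycling and 116 and 53.5 CPM in non-cycling cells, Isg15, a ubiquitin-like protein, at 18.4 and 52.7 CPM, and Socs3, an inhibitor of cytokine signalling, at 84.7 and 243 CPM. Maff, a small Maf factor, was at 26.8 and 78.3 CPM and Csrnp1, a nuclear protein, at 36.2 and 95.7 CPM. Spink4, a secreted protease inhibitor, was at 46.1 and 135 CPM, the carboxylesterase Ces1c at 32.6 and 88.7 CPM, Ddah2, which breaks down methylated arginine, at 65.04 and 187 CPM, and Pbxip1, a partner of Pbx factors, at 27.6 and 78.3 CPM. No list of interferon genes was drawn up, so these are single values. Against 44 non-cycling cells matched on UMIs, by the rule, the log2 ratio of Isg15 was -0.40, the log2 ratio of Socs3 -0.58, the log2 ratio of Ces1c -0.17, the log2 ratio of Irf1 -0.94 and the log2 ratio of Csrnp1 -0.87, all within 2-fold. By the rule with cells thinned, the log2 ratio of Spink4 was -0.70, that of Socs3 -0.99 and that of Csrnp1 -0.94. With equal weight per cell it was -0.96 for Spink4, -0.74 for Ddah2, -0.88 for Irf1, -0.96 for Ces1c and -0.84 for Csrnp1. With a gate of 3 cycle genes it was -0.92 for Ddah2, -0.99 for Pbxip1 and -0.98 for Csrnp1.

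Without the added keratin limit, 134 higher and 67 lower genes met the naming rule. Several of the 15 lower ones were genes of cells other than epithelium. Vwf and Esm1, endothelial genes, were at 23.1 and 18.2 CPM in the 224 members and 85.8 and 75.6 CPM in the 1018 non-cycling cells, and Pf4, a platelet and macrophage chemokine, at 182 and 635 CPM. The immunoglobulin genes Ighg2c and Ighm were at 2.77 and 12.2 CPM in members and 250.2 and 82.00 CPM in non-cycling cells, where 1 cell held 98.6% and 95.9% of their UMIs. Arg1, arginase 1, was at 25.6 and 172 CPM by the rule, yet at 25.5 and 21.4 CPM in keratin-high cells, so its direction turned. Igfbp3, Igfbp5, Mal, Thbs1, Depp1, Prss23 and Ecm1 were the others besides Igfbp1 and Tff2, with log2 ratios of -2.29, -2.33, -2.01, -1.99, -1.98, -1.76 and -1.76. Against the non-cycling cells matched on UMIs, the direction turned for 6 of the lower genes, with log2 ratios of 2.41 for Igfbp3, 2.04 for Esm1, 1.78 for Ighm, 1.70 for Vwf, 1.19 for Prss23 and 0.84 for Depp1. In keratin-high cells the log2 ratios of Esm1, Pf4, Thbs1 and Vwf were -0.08, -0.09, -0.19 and -0.26. On the higher side, 1 named gene by the rule was not among the keratin-high ones, Cenpe, a mitotic motor, at 53.4 and 1.30 CPM by the rule.

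High shares of hepatocyte UMIs were found in a few cells, while low counts were widespread: Ttr, transthyretin, had a UMI in 171 of 173 keratin-high members and 622 of 626 keratin-high non-cycling cells, with medians of 1295 and 1581 CPM, and in 44 of 51 keratin-low members, with a median of 170 CPM. Ahsg had a UMI in 110 of 173 keratin-high members and 352 of 626 keratin-high non-cycling cells. The list without Apoe took a median of 0.346% of UMIs in keratin-high members and 0.421% in keratin-high non-cycling cells, with highest values of 10.6% and 12.3%. At least 2% was reached by 5 of 173 members (2.89%; 0.945% to 6.62%) and by 25 of 626 non-cycling cells (3.99%; 2.60% to 5.84%). The member at 10.6% had 50489 UMIs, among them 1074 of Ttr, 665 of Ahsg, 485 of Apoa2 and 472 of Alb, but 136 of Spp1, and a keratin share of 0.604%. The next one, at 5.17%, had 39479 UMIs, with 444 of Ttr and 69 of Spp1. Of 23 measured hepatocyte genes 3 were at least 2-fold higher and 2 lower (4 and 2 by the rule). The higher ones were Apoa2 at 139 and 34.6 CPM, Apoc3 and the urea cycle enzyme Cps1, of which 1 cell held 65.5%, 33.0% and 62.5% of the members' UMIs. Alb, albumin, was at 375 and 551 CPM, and Serpina1a, which has near-identical copies, at 21.4 and 66.5 CPM. Against the non-cycling cells matched on UMIs the log2 ratio of Serpina1a turned to 2.91.

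The members were ranked by cycle phase from the 12 S phase and 12 G2 and mitosis order genes, as the share of G2 and mitosis UMIs in the sum of both. Of the 224 members, 217 had at least 5 such UMIs, and the share ran from 0% through a median of 52.4% to 100%, with 212 members holding UMIs of both lists. Cut into ranges of equal size, called S, middle and G2M, the 217 members had limits at 37.0% and 65.4%, with 20 and 37 members within 5 percentage points of them. The ranges are slices of a continuous score and not classes of cells. Among keratin-high members each range held 56 cells, with median shares of 19.5%, 51.7% and 73.8%. Median depth was 41884.5 UMIs in the S, 24281 in the middle and 14849.5 in the G2M range. Depth thus fell along the order, and its part in the differences between the ranges was not tested.

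Along the order, genes outside the order lists changed in sequence. Of 8872 genes measured over the keratin-high S and G2M ranges, 247 (2.78%) were at least 2-fold higher and 175 (1.97%) at least 2-fold lower in the G2M range, and 331 (3.49%) and 248 (2.62%) of 9474 genes with all members. The spindle motor and cytokinesis list had 20 of 23 genes at least 2-fold higher in the G2M range, and the kinetochore list 10 of 25. The replication list had 13 of 33 genes lower and the DNA repair list 8 of 21. None of the 30 MYC target and nucleolar, 17 immediate early and 16 glycolysis genes passed 2-fold in either direction.

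The early end held replication start and its regulators. Ccne1, which fires S phase entry with Cdk2, had 25.1, 13.6 and 5.27 CPM in the S, middle and G2M ranges, a log2 ratio of G2M over S of -2.25 (-3.63 to -1.11). In the same order of ranges, E2f1 had 38.8, 19.3 and 9.79 CPM, the licensing factor Cdc6 11.9, 3.40 and 3.01 CPM, and claspin, Clspn, 53.4, 24.9 and 13.6 CPM. Ung, the glycosylase that removes uracil from new DNA, had the steepest slope of the repair list, with 45.6, 8.50 and 5.27 CPM in the S, middle and G2M ranges. All 5 genes were highest in the S range.

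The late end held the genes of mitotic entry and exit. Cdc20 had 25.5, 107 and 191 CPM, Cenpf 40.6, 118 and 343 CPM and Mki67 91.2, 193 and 252 CPM in the S, middle and G2M ranges, although all 3 are gate genes and had helped to choose the members. Cdkn3 had 13.2, 52.7 and 99.4 CPM and the microtubule protein Ckap2 15.1, 53.3 and 104 CPM in the S, middle and G2M ranges, log2 ratios of G2M over S of 2.91 and 2.79. Kifc1 and Kif2c, motors of the spindle poles and the centromere, had 3.19, 18.7 and 30.9 CPM and 3.19, 14.2 and 25.6 CPM in the S, middle and G2M ranges. Both motors were lowest in the S range. Ccna2 had 44.7, 103 and 139 CPM and Cdc25b 6.84, 17.6 and 43.7 CPM in the S, middle and G2M ranges, log2 ratios of G2M over S of 1.64 and 2.67. Cdkn1b, which codes for p27, and Cdkn1a, p21, were highest in the G2M range too, at 19.2, 22.7 and 51.2 CPM and 389, 402 and 527 CPM in the S, middle and G2M ranges.

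The order genes themselves describe the construction. Mcm5 had 107, 65.7 and 23.3 CPM, Pcna 192, 126 and 64.02 CPM, Ccnb1 20.98, 82.2 and 184 CPM and Plk1, the polo kinase, 10.5, 32.3 and 57.99 CPM in the S, middle and G2M ranges. Within the S phase list, Rrm2 and Tyms were nearer to flat, with 141, 117 and 97.9 CPM and 132, 121 and 119 CPM in the S, middle and G2M ranges.

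**Figure D5:**
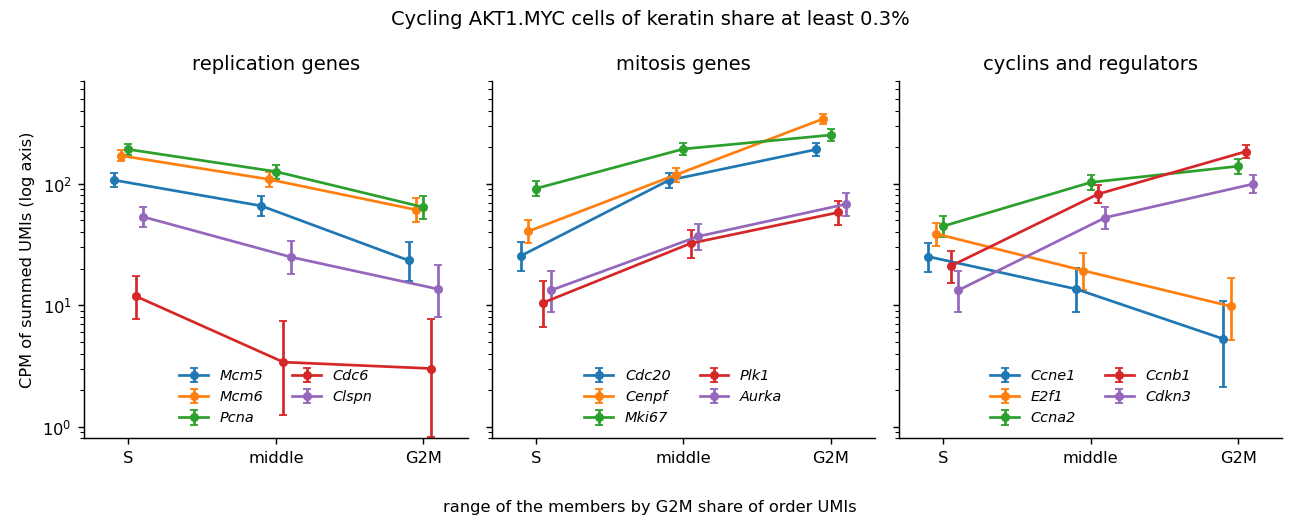
CPM of summed UMIs (vertical log axis, bars are exact 95% Poisson intervals) of 15 genes in the S, middle and G2M ranges (horizontal axis, 56 keratin-high cycling AKT1.MYC cells each). Replication genes, Ccne1 and E2f1 decline from the S range to the G2M range, and Cdc20, Cenpf, Ccnb1 and Cdkn3 climb, Ccnb1 to 184 CPM.

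Outside the cell cycle, some differences between the ranges rested on few cells. Of 20 hepatocyte genes, 11 were at least 2-fold higher in the keratin-high G2M range (median 1.38), but 2 of 16 without the 2 members richest in these transcripts (median 0.10), 1 of which lay in the G2M range. Ly6d, a surface antigen, had 431, 129 and 144 CPM, and Kcne3, a potassium channel subunit, 189.7, 75.9 and 68.5 CPM in the S, middle and G2M ranges, both highest in the S range. The S range also held more of Ccl5 and Cxcl5, chemokine genes, with 54.7 and 78.9 CPM against 9.04 and 24.1 CPM in the G2M range. Of the cyclin D genes, Ccnd1 had 250.4, 142 and 134 CPM and Ccnd2 127, 49.3 and 69.3 CPM in the S, middle and G2M ranges.

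Set against the 51 keratin-low members, the 173 keratin-high members had higher levels of most listed fatty acid and cholesterol synthesis genes. Of 10520 genes, 2261 (21.5%) were at least 2-fold higher and 1362 (12.9%) at least 2-fold lower in the keratin-high members. Since keratins divided the groups, the 19 of 20 duct genes that were higher describe the division. Of 23 fatty acid and cholesterol synthesis genes 20 were at least 2-fold higher, such as Sqle, squalene epoxidase, at 63.4 CPM in keratin-high and 4.95 CPM in keratin-low members, and Fasn, fatty acid synthase, at 97.8 and 18.5 CPM. Myc was at 99.9 and 22.3 CPM (log2 ratio 2.17, 1.49 to 2.93) and Akt1 at 282 and 151 CPM. All 8 gate cycle genes, which helped to choose the members, differed by under 2-fold in summed CPM, with a median log2 ratio of -0.54. Keratin-low members had a median of 12549 UMIs, against 26398 in keratin-high members, yet had to show as many gate genes, and the part of this in the cycle values was not tested. By single-cell medians, Mki67, Top2a, Cenpf, Birc5, Prc1, Hmmr and Cdc20 were higher in keratin-low members. Top2a had medians of 65.3 CPM in keratin-high and 278 CPM in keratin-low members, and Mki67 96.0 and 224 CPM. The gate gene Pbk went the other way, with medians of 71.4 CPM in keratin-high and 0 CPM in keratin-low members. Of 15 histone genes 10 were at least 2-fold lower in the keratin-high members. Pcna was at 136 CPM in keratin-high and 253 CPM in keratin-low members. Named genes on the lower side included Ngp and Camp, granule genes of neutrophil precursors, Jchain and Igha, of plasma cells, and Erg, an endothelial factor, with 1575, 1557, 1929, 7161 and 53.2 CPM in keratin-low members and 2.06, 2.999, 4.31, 17.8 and 0.187 CPM in keratin-high members. Of the 51 keratin-low members, 2 had at least 3 of 6 B and plasma cell markers. At least 3 of 7 neutrophil markers were seen in 17 of them and at least 4 in 3, and at least 5 of 11 macrophage markers in 47. A single cell held 56.2% of the Jchain UMIs of all 224 members.

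Dividing cells of another kind in the same library gave a second measure of the cycle programme. The library held 288 barcodes with at least 4 of the 8 cycle genes: 224 members, 49 with C1q over the limit, 14 with collagen over the limit and 1 with under 2 keratin genes. No dividing cell lacked keratin UMIs, so the 49 cycling C1q-rich cells served as the comparison. All 224 members against these had 2723 of 10859 genes (25.1%) at least 2-fold higher and 1119 (10.3%) at least 2-fold lower. Against an all-gene median log2 ratio of 0.35, the medians were -0.02 for the S phase order, -0.64 for the G2 and mitosis order, with 2 of 12 genes at least 2-fold lower, and -0.07 for the replication genes. With keratin-high members alone, 2680 genes were higher and 1169 lower. Of 25 nucleotide genes 10 were at least 2-fold higher in members and 1 lower, which was Tk1, at 76.01 CPM in members and 206 CPM in C1q-rich cells.

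Larger differences from the cycling C1q-rich cells lay outside the cycle lists. Of 23 lipid synthesis genes, 19 were at least 2-fold higher in members, such as Hmgcs1 at 148 and 37.2 CPM. Idi1, a sterol enzyme, was at 42.2 CPM in members and had no UMI in the C1q-rich cells, which makes it at least 10.6-fold higher against a floor of 3 counts over that group. Of 30 MYC target and nucleolar genes 14 were at least 2-fold higher and none lower, such as Npm1 at 2057 and 844 CPM, and of 18 p53 target genes 10 were higher, such as Mdm2 at 77.3 and 31.9 CPM. Myc was at 89.7 and 27.9 CPM and Akt1 at 265 and 126 CPM. Macrophage markers were lower for 11 of 11, which the C1q limit fixes in part. Named genes that were lower included Cx3cr1 and Hpgds, of macrophages, at 4.07 and 2.28 CPM in members and 245 and 139.5 CPM in C1q-rich cells.

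The same rule in NRAS.MYC.ND gave 55 cells, of which 50 were keratin-low. Of the 55, 10 had at least 5 endothelial markers and 28 others a Ptprc UMI, and, counted separately, 13 had at least 20000 CPM of Alb and 14 at least 3 of 6 T cell markers. Library and tumour model cannot be told apart here. Of 11287 genes, 1484 (13.1%) were at least 2-fold higher and 1414 (12.5%) at least 2-fold lower in the AKT1.MYC members. Hepatocyte genes were lower for 20 of 24 and T and NK markers for 7 of 7, against an all-gene median log2 ratio of 0.09. The S phase order list had a median of -0.05 and the G2 and mitosis order list one of -0.77, with 3 of 12 genes of the G2 and mitosis list at least 2-fold lower in AKT1.MYC. Nras was at 65.1 CPM in AKT1.MYC and 485 CPM in NRAS.MYC.ND members, and Akt1 at 265 and 114 CPM. Among named genes, Wfdc18, Tff2 and Gpx2 were at 1602, 77.97 and 249 CPM in AKT1.MYC and 19.95, 0.798 and 3.99 CPM in NRAS.MYC.ND members, and the oncofetal RNA H19 at 8.63 and 1825 CPM.

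Within NRAS.MYC.ND, the cycling against the non-cycling cells of the same rule had all 12 genes of each order list at least 2-fold higher, with 1077 of 10898 genes (9.88%) higher and 1237 (11.4%) lower. The G2 and mitosis order list had a median of 7.09, with 1756 CPM in sum in cycling and 28.0 CPM in non-cycling NRAS.MYC.ND cells. The AKT1.MYC sums by the same rule were 1002 CPM in cycling and 43.6 CPM in non-cycling cells. MYC target and nucleolar genes had 9 of 28 at least 2-fold higher (median 0.70), and immediate early genes a median of -0.37 with 1 of 17 past 2-fold in each direction. The 55 cycling NRAS.MYC.ND cells had a median keratin share of 0.0367% and the 197 non-cycling ones 0.325%. In AKT1.MYC the medians by the rule were 0.763% and 0.747%. Cell type and cycle state can therefore not be told apart in the NRAS.MYC.ND contrast. Whether the libraries differ in these contrasts was not tested.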

How the data were processed

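Each of the 2 libraries came as a matrix of raw UMI counts per gene and barcode, deposited by the authors without normalization. Per the file headers it was made with Cell Ranger 6.1.1, and per the submitters' processing notes with version 6.1.2 on mm10, without a named annotation release. Per the labels' protocols, dissociated cells were enriched for live cells and loaded on 10x 3′ v2 chemistry.

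AKT1.MYC held 10766 barcodes with 64516171 UMIs and NRAS.MYC.ND 6312 with 42416125 UMIs. UMIs were summed over cells and given as CPM with exact Poisson intervals, ratios with exact binomial intervals conditional on the total, and shares with Clopper-Pearson intervals. Genes needed 30 UMIs over both groups, and a gene was counted as higher or lower past 2-fold. No count model was fitted, since each group has 1 library. The ratio code was checked on simulated data.

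The members and all lists were chosen with earlier results of these data known. Named genes had at least 50 CPM in the higher group and an interval that excluded 2-fold. The 15 largest ratios in each direction were named for cycling against non-cycling cells, and 10 for other comparisons, of which those quoted are a selection. Mitochondrial, ribosomal protein, haemoglobin, sex-linked marker, receptor segment and unnamed genes and the rule's own genes were left out. From each list, examples were taken by largest ratio and by level. The keratin share limits, the C1q comparison (planned with keratin-negative dividing cells, of which there were 0), the thinned shares, the removal of top cells and the floor of 20000 UMIs were added after the data were seen. Doublets were kept; high Scrublet scores marked 8 of 224 members and 44 of 1018 non-cycling cells. Alternatives changed the gates, the non-cycling cells, the scaling, the depth and the gene minimum. Python 3.11.15, numpy 2.4.6, scipy 1.17.1, pandas 2.3.3, scanpy 1.11.5 and matplotlib 3.10.9 were used.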

Additional observations from a re-analysis of the deposited data

Results flagged for a closer look

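The neutrophil marker list went opposite ways under the same contrast in the 2 libraries, by its median log2 ratio of cycling over non-cycling keratin-gated cells. In AKT1.MYC the median was -1.18. In NRAS.MYC.ND it was 3.85. The difference was not tested, since each group has 1 library. Cycling and non-cycling NRAS.MYC.ND cells also differed in keratin share, as given above. At least 3 of the 7 markers were seen in 75 of 224 AKT1.MYC and 9 of 55 NRAS.MYC.ND members, but few cells had 4 or more. At least 4 of 7 neutrophil markers were seen in 16 of 224 AKT1.MYC members, of which 1 cell held 36.3% of the S100a8 and 40.6% of the S100a9 UMIs, and in 3 of 55 NRAS.MYC.ND members. By the rule, summed neutrophil markers were at 1363 CPM in cycling and 677 CPM in non-cycling AKT1.MYC cells, so that the sum and the median of the list differ in sign, and in keratin-high cells they were at 178 and 319.9 CPM.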

How the results depend on the processing

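With 1 library a group, intervals cover counting error only, and animals, batches and tumours cannot be told apart from the model. The share of keratin-gated cells in the gate, 4.70% as reported, was 7.03% with 3 of 8 cycle genes, 3.46% with 5 of 8, 6.12% with 3 of 5 keratin genes, 4.06% without barcodes holding a Ptprc, Pecam1 or Cd3e UMI, 5.92% with a keratin share of at least 0.5%, and 1.68%, 7.86% and 11.5% with cells thinned to 2000, 10000 and 20000 UMIs. Genes higher in cycling than in non-cycling cells, 648 as reported, came to 1026 against the 44 non-cycling cells matched on UMIs. Lower genes, 1163 as reported, came to 551 against those cells, 613 and 1861 with gene minimums of 100 and 10 UMIs, and 682 with a keratin share of at least 0.3% and 20000 UMIs (105 and 210 cells). Against NRAS.MYC.ND members, 1484 higher genes became 840 with cells thinned to 4005 UMIs and 895 with a minimum of 100 UMIs, and 1414 lower genes became 393 thinned, 594 with a minimum of 100 and 2233 with a minimum of 10 UMIs. Against C1q-rich cells, 2723 higher genes became 839 without barcodes holding a Ptprc, Pecam1 or Cd3e UMI (4 C1q-rich cells left), 1115 thinned and 1598 with a minimum of 100, and 1119 lower genes became 3987, 420 and 580 under these settings and 1849 with a minimum of 10 UMIs. Matching on UMIs turned the median of the neutrophil markers to 1.55, the log2 ratio of Ighm to 1.78, the log2 ratio of Igfbp3 to 2.41, the log2 ratio of Esm1 to 2.04, the log2 ratio of Depp1 to 0.84, the log2 ratio of Vwf to 1.70, the log2 ratio of Prss23 to 1.19 and the log2 ratio of Serpina1a to 2.91. The log2 ratio of Esm1 was 0.056 without barcodes holding a Ptprc, Pecam1 or Cd3e UMI. The log2 ratio of Arg1 was 0.25 and 0.39 with keratin shares of at least 0.3% and 0.5%. With 0.3% and 20000 UMIs the log2 ratio of Arg1 was 0.45, the log2 ratio of Esm1 0.54, the log2 ratio of Thbs1 0.25 and the log2 ratio of Pf4 0.021. Apart from what smaller gene sets or cell numbers fix, the cause was not tested. Of 209 values of the 11 lists past 2-fold, 184 stayed past 2-fold and 208 kept their sign, and of 876 values of 44 named genes 803 and 862 did. The gate helps to set the sign of cell cycle lists, and the named genes were picked by the largest ratios of the same contrast. These counts are therefore description only. The comparison with NRAS.MYC.ND got no value with 5 of 8 cycle genes, 3 of 5 keratin genes, keratin share limits or the removal of Ptprc, Pecam1 or Cd3e barcodes, since under 50 NRAS.MYC.ND members remained. No paired analysis was possible because each group has 1 library.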

Other observations

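Genes with large ratios of keratin-high over keratin-low members, groups that keratin UMIs divided, had various roles. Cldn2, a pore-forming claudin, was at 120.2 CPM in keratin-high and 2.47 CPM in keratin-low members, the sodium channel gene Scn8a at 53.05 and 1.24 CPM, and the GABA receptor subunit Gabrp at 145 and 4.95 CPM. Ankrd1, known as a target of the YAP pathway, was at 236 CPM in keratin-high and 6.18 CPM in keratin-low members. Ddr1, a collagen receptor, was at 68.4 and 2.47 CPM, and Fga, fibrinogen alpha, at 226 and 8.66 CPM.

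Oncofetal genes, active in fetal liver and in many liver tumours, were scarce in the AKT1.MYC cells. Of 13 listed, 5 were measured in keratin-high cells and summed to 36.9 CPM in cycling and 22.8 CPM in non-cycling cells. H19 was at 9.37 and 4.46 CPM, Peg3 at 16.9 and 9.01 CPM and Gpc3 at 1.12 and 2.66 CPM. A single cell held 50% of the H19 UMIs of the cycling cells, another 51.1% of those of the non-cycling cells, and 1 cell 34.4% of the Peg3 UMIs of the cycling cells.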
